A study of Mus musculus with 12 samples.

Results

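Plvap and Shisa8 are 2 mouse genes that shared an unusual course in airway epithelial cultures treated with an shRNA against Myb. Both were lower with Myb shRNA than with scrambled shRNA at day 3 of air-liquid interface (ALI) culture and higher at day 9. They were chosen for this reversal from the 9378 genes tested, so their shRNA differences, the interaction and the day course within each shRNA are given below as a description, with no p-value. Each gene is represented by 1 probe, ILMN_2984110 for Plvap and ILMN_1250392 for Shisa8, so no second probe checks either of them.

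The cultures were primary tracheal epithelial cells of male C57BL/6J mice, kept with air above and medium below, where basal progenitors form ciliated and secretory cells. All cells carried a lentiviral shRNA, which was either directed at Myb, a transcription factor gene of progenitor cells, or a scrambled control. Illumina bead arrays measured total RNA in 4 groups of 3 biological replicates, namely scrambled and Myb shRNA cultures at day 3 and at day 9. Nothing further says that the replicates came from separate cultures or animals, so the p-values measure the spread between these samples. The animals' age, the number of shRNA sequences and whether animals were pooled are not given in the sources used here. Each level is a normalised intensity (log2) given with the SD over 3 arrays, each difference is given in log2 units with the fit's SE, and a probe counts as detected on an array where its detection p-value was under 0.01.

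Plvap encodes a membrane glycoprotein best known from endothelial cells, where it forms the diaphragms that span caveolae, fenestrae and transendothelial channels. It is widely used as a marker of vascular endothelium and is not a usual marker of airway epithelium. Shisa8 belongs to the Shisa family of cysteine-rich, single-pass membrane proteins, several of which, Shisa8 included, bind AMPA-type glutamate receptors in the mouse brain as auxiliary subunits. Other Shisa proteins hold receptors of developmental signals in the endoplasmic reticulum.

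The group names follow the labels, because the arrays gave no check of the knockdown. Myb had 4 probes, none of which passed the detection filter (detection on at least 3 arrays), and 1 of 48 readings was detected. Of 11 airway epithelial markers with a probe, 10 were detected, including the basal genes Krt5, Krt14 and Trp63, the cadherin Cdh1 and the club cell gene Scgb1a1, while Epcam was not detected on any array. Between 29.3% and 33.3% of the probes were detected on each array. Precision is limited by how few arrays each group has.

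Plvap was detected on all 12 arrays. At day 3 its background-subtracted signal in replicates 1, 2 and 3 was 490.2, 451 and 781 under scrambled shRNA, as against 74.9, 68.3 and 114 under Myb shRNA. At day 9 the Plvap signal was 333, 298 and 257 under scrambled and 505, 527 and 659 under Myb shRNA. The Myb shRNA arrays thus lay below every scrambled array at day 3 and above every scrambled array at day 9. After normalisation the Plvap level was 9.19 ± 0.34 in day 3 scrambled, 6.63 ± 0.33 in day 3 Myb shRNA, 8.24 ± 0.30 in day 9 scrambled and 9.25 ± 0.09 in day 9 Myb shRNA cultures. From highest to lowest the order ran from Myb shRNA at day 9 through scrambled at day 3 and scrambled at day 9 to Myb shRNA at day 3. The ranges of the highest pair overlapped, and no other neighbours in that order did.

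Shisa8 followed the same order in fainter signals, apart from a near tie of its highest pair. The day 3 signal was 148, 163 and 322 under scrambled shRNA, as against 32.6, 11.5 and 41.1 under Myb shRNA, where replicate 2 was not detected. The day 9 signal was 115, 107 and 101 under scrambled and 160.0, 157 and 284 under Myb shRNA. Again the Myb shRNA arrays lay below all scrambled arrays at day 3 and above all of them at day 9. The normalised Shisa8 level was 7.81 ± 0.44 in day 3 scrambled, 5.45 ± 0.37 in day 3 Myb shRNA, 6.88 ± 0.22 in day 9 scrambled and 7.76 ± 0.33 in day 9 Myb shRNA cultures. Day 3 scrambled and day 9 Myb shRNA overlapped and the other neighbours did not.

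The sequence just before the Shisa8 start is shown because the shRNA targets a transcription factor with a known DNA motif. It covers the 250 bases upstream of the start at chr15:82212816-82213065 on the minus strand of GRCm38.p6, from RefSeq, 5′ to 3′ along the gene. Capitals mark each match to the Myb core motif AACNG on either strand.
Shisa8 upstream: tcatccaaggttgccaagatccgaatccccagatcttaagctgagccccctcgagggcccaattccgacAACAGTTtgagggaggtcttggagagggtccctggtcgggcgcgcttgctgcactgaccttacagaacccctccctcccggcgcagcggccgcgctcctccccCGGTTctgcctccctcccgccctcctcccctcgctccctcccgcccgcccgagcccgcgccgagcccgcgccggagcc
The window held 3 matches, of which 2 overlap on opposite strands in the first run of capitals. At least 1 match was found in 74.2% of 32851 mouse promoter windows of the same length, and at least 3 in 19.3%, so the letters are common. No Plvap sequence is shown.

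**Figure D1:**
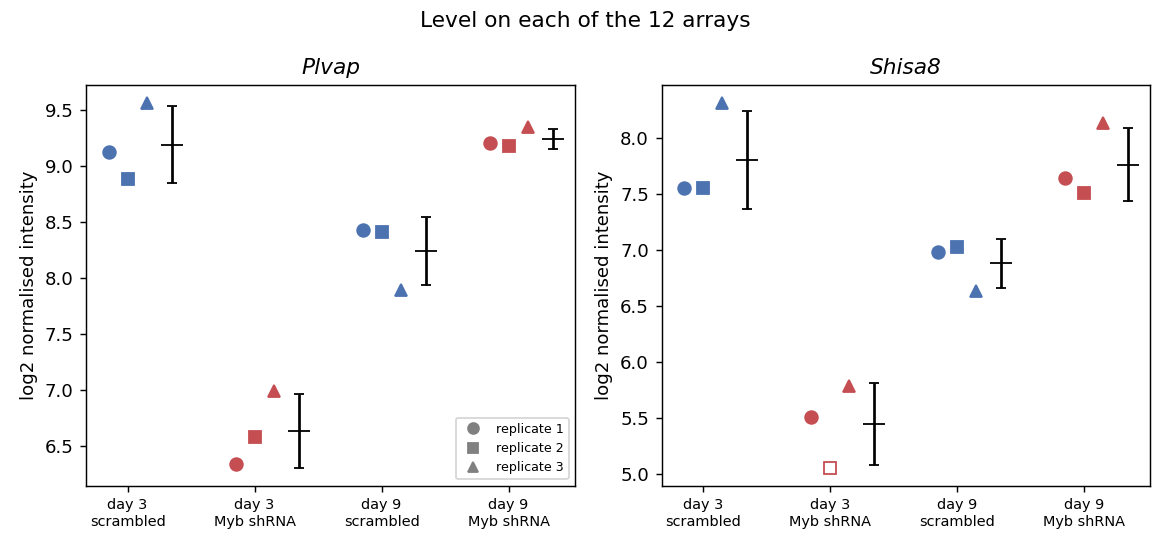
Log2 normalised intensity of Plvap (left) and Shisa8 (right) on each array, by group; circles, squares and triangles are replicates 1, 2 and 3, the open square is an array where the probe was not detected, and black bars are mean ± SD (n = 3). Both genes were lowest in day 3 Myb shRNA cultures (6.63 and 5.45) and close to their day 3 scrambled level in day 9 Myb shRNA cultures.

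With Myb shRNA, Plvap differed from scrambled by -2.56 ± 0.21 at day 3, a 5.89-fold lower level, and by 1.01 ± 0.21 at day 9, a 2.01-fold higher level. The differences within replicate numbers 1, 2 and 3 were -2.79, -2.31 and -2.58 at day 3 and 0.78, 0.77 and 1.46 at day 9. Shisa8 differed by -2.36 ± 0.25 at day 3, or 5.13-fold lower, and by 0.88 ± 0.25 at day 9, or 1.85-fold higher. Its differences by replicate number were -2.05, -2.50 and -2.53 at day 3 and 0.66, 0.48 and 1.50 at day 9. Every number thus showed the reversal in both genes, and number 3 had the widest gap at day 9. With another background correction (normexp with an offset of 50) the day 3 difference of Shisa8 shrank to -1.40. In these bulk samples, fewer cells that express a gene and less RNA per cell cannot be told apart.

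At day 3, 11.2% of the genes tested passed as lower with Myb shRNA, and at day 9, 6.65% passed as higher (limma, Benjamini-Hochberg adjusted p under 0.05). Groups that did not overlap in these directions were found for 18.7% of genes at day 3 and 19.8% at day 9. Both conditions on non-overlap at once were met by 60 genes (0.64%). These contrasts chose Plvap and Shisa8, so nothing is read from the shares for them. The change in the shRNA difference from day 3 to day 9 was 3.56 ± 0.29 for Plvap and 3.24 ± 0.35 for Shisa8, the highest and the second highest of the 9378 genes. These ranks are in large part set by the choice, and nothing is read from them. Plvap was highest under every alternative run, while Shisa8 ranked 4 with the normexp correction and 3 without day 3 scrambled replicate 3. In the interaction 155 genes (1.65%) passed. With the replicate number as a block, 3398 genes in place of 2133 passed at day 3, 2331 in place of 1513 at day 9 and 714 in place of 155 in the interaction.

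Few genes reversed with a call at each day. In all, 8 genes (0.0853%) passed as lower at day 3 and higher at day 9, Plvap and Shisa8 among them through the choice itself, while 4 (0.0427%) passed as higher at day 3 and lower at day 9. By contrast, 538 genes (5.74%) were called lower at both days and 365 (3.89%) higher at both. The other 6 genes of the first class had smaller differences than Plvap and Shisa8. They were the fatty acid hydroxylase genes Cyp4a12a and Cyp4a12b, the glycine transporter gene Slc6a9, the flavin monooxygenase gene Fmo2, the selenium-binding protein gene Selenbp2 and Tmem54. The Cyp4a12a level fell from 7.02 ± 0.20 to 6.25 ± 0.13 with Myb shRNA at day 3 (adjusted p = 0.00471), whereas it rose from 6.72 ± 0.22 to 7.41 ± 0.19 at day 9 (adjusted p = 0.0113). Slc6a9 fell by 0.63 at day 3 (adjusted p = 0.00191), and it rose by 0.43 at day 9 (adjusted p = 0.0252). Cyp4a12a and Cyp4a12b are near-identical copies, so their probes may share signal. Fmo2 was not well above background on any day 3 Myb shRNA array and was at least 1.20-fold lower there (adjusted p = 0.0396). Each of these 6 genes lost the call of at least 1 day when some single array was left out. Of the 12 such fits, 4 kept 1 of Plvap and Shisa8 in the class, namely those without day 9 scrambled replicate 1 or 3 or day 9 Myb shRNA replicate 1 or 3, and the other 8 kept both. Without day 9 scrambled replicate 3 the class held 1 gene in place of 8, and it held 19 with the replicate number as a block, with all 8 among them.

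**Figure D2:**
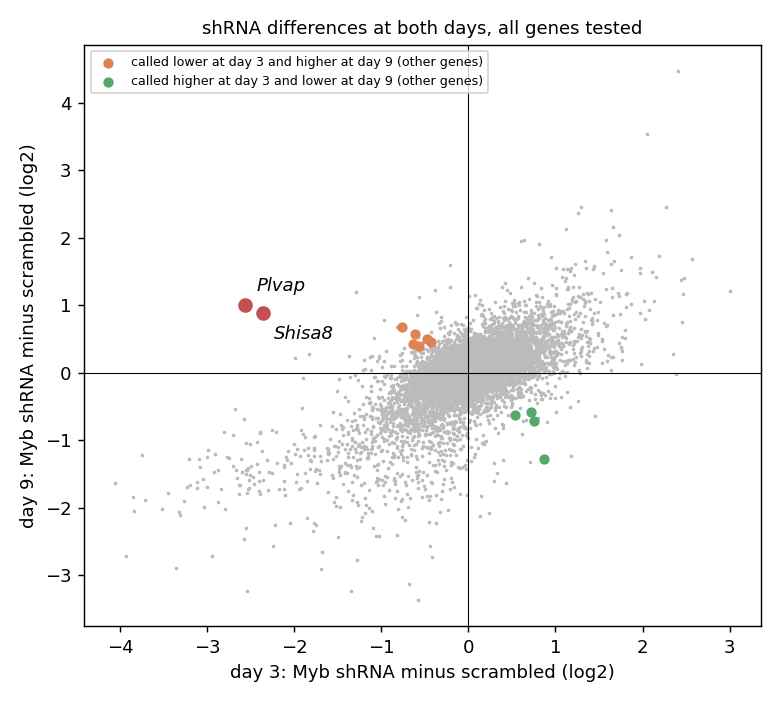
Difference between Myb shRNA and scrambled cultures (log2) at day 3 (x axis) and at day 9 (y axis) for all 9378 genes tested; orange points are the other genes called lower at day 3 and higher at day 9, and green points the 4 called the other way. Plvap (-2.56, 1.01) and Shisa8 (-2.36, 0.88) lie apart from the cloud at the upper left.

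The day course within each shRNA also ran opposite ways. In scrambled cultures the Plvap level was 0.95 ± 0.21 lower on the log2 scale at day 9 than at day 3, with differences of -0.70, -0.48 and -1.67 by replicate number. With Myb shRNA it was 2.61 ± 0.21 higher at day 9, with differences of 2.87, 2.61 and 2.36. For Shisa8 the difference between days was -0.93 ± 0.25 in scrambled cultures and 2.32 ± 0.25 with Myb shRNA. Without the 4 arrays numbered 3, the differences in scrambled cultures were -0.59 for Plvap and -0.55 for Shisa8, whereas all genes had a median of -0.07 in scrambled cultures on all 12 arrays. Among all genes tested, the Plvap difference lay at percentile 1.03 in scrambled cultures and at percentile 99.4 with Myb shRNA, and that of Shisa8 at percentiles 1.11 and 99.1. Calls in opposite directions over time were rare, with 7 genes (0.0746%) called lower at day 9 in scrambled and higher in Myb shRNA cultures. The choice of Plvap and Shisa8 favoured such courses, so nothing is read for them from this share or from the percentiles. With these courses, the day 9 Myb shRNA level of Plvap exceeded its day 3 scrambled level by 0.06, and that of Shisa8 differed from its own by -0.04.

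**Figure D3:**
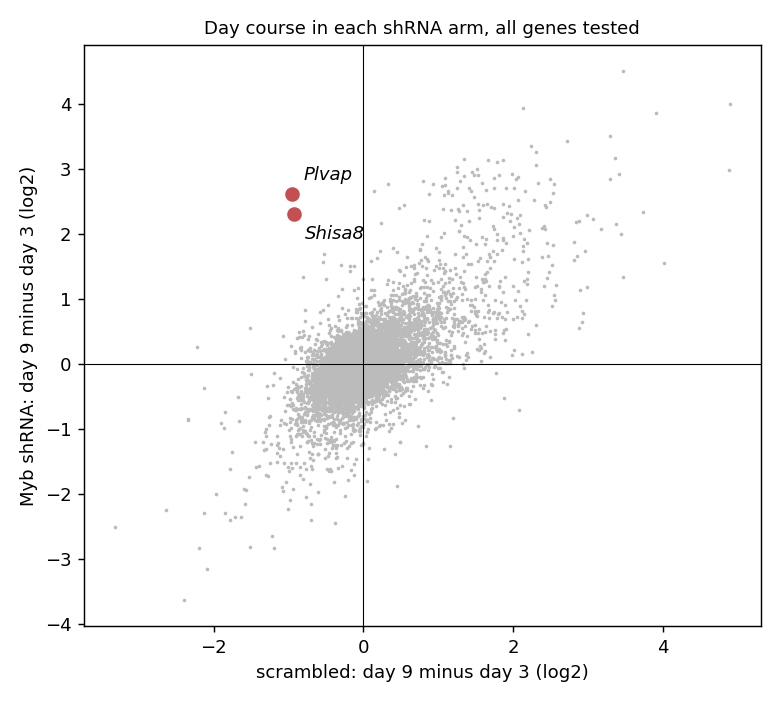
Difference between day 9 and day 3 (log2) in scrambled (x axis) and in Myb shRNA cultures (y axis) for all 9378 genes tested. Plvap (-0.95, 2.61) and Shisa8 (-0.93, 2.32) lie to the left of the vertical zero line and far above the horizontal one.

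The mean of both day 9 groups less the mean of both day 3 groups was tested. This contrast is orthogonal to the shRNA differences that chose the genes, but it shares their arrays and their estimate of spread. Plvap rose by 0.83 ± 0.15 on average from day 3 to day 9 (limma adjusted p = 0.000810), in 3 of 3 replicate numbers (1.09, 1.07 and 0.34). Shisa8 rose by 0.69 ± 0.17 (adjusted p = 0.00907), also in 3 of 3 numbers (0.78, 0.97 and 0.34). In this contrast 2594 genes (27.7%) passed, 1263 of them (13.5%) as higher, so that an average rise was common. The average joins courses that ran in opposite directions in the 2 arms, which is why it is smaller than the rise with Myb shRNA. With the normexp correction the average rise of Shisa8 was 0.35 (adjusted p = 0.0397).

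Plvap and Shisa8 were chosen for the same course over the 4 groups, so a high correlation over all arrays, and each being the gene most like the other, are in large part set by that choice. Over the 12 arrays their log2 levels correlated at r = 0.982, and after the group means were removed at r = 0.750. These points share groups and replicate numbers, and the values are descriptive. Each was the gene most like the other among the 9378. For Plvap the next most alike were Wdr77, a subunit of the methylosome (r = 0.964), Ccno, a cyclin needed for centriole amplification (r = 0.955), Gpt, an alanine aminotransferase (r = 0.941), and Phf10, a chromatin remodelling subunit (r = 0.929). For Shisa8 they were Ccno (r = 0.973), Wdr77 (r = 0.958), Mcidas, the multicilin gene that starts the multiciliated cell programme (r = 0.952), and Nelfe, a subunit of the negative elongation factor (r = 0.945). Over the 8 arrays numbered 1 and 2, 2 of the 5 genes most like Plvap stayed among its first 5, and 3 of the 5 of Shisa8. On those arrays Shisa8 ranked 3 in likeness to Plvap, while Plvap kept rank 1 for Shisa8.

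The alike genes shared the low level in day 3 Myb shRNA cultures more than the excess at day 9. They were selected for likeness over the same arrays, and their differences are therefore not tested here. The Ccno level was 12.09 ± 0.50 under scrambled and 10.26 ± 0.25 under Myb shRNA at day 3, and 11.55 ± 0.24 and 11.83 ± 0.24 at day 9. Its shRNA difference was -1.83 ± 0.22 at day 3 and 0.28 ± 0.22 at day 9. Mcidas differed by -1.99 ± 0.33 and 0.23 ± 0.33, and Nelfe by -0.97 ± 0.14 and 0.18 ± 0.14. Phf10 differed by -0.99 ± 0.12 at day 3 and 0.09 ± 0.12 at day 9, and Gpt by -0.76 ± 0.13 and 0.19 ± 0.13. Of these 6 genes, Wdr77 alone had shRNA groups that did not overlap at both days, with differences of -0.48 ± 0.12 and 0.21 ± 0.12. The excess of Plvap and Shisa8 at day 9 was 1.01 and 0.88.

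**Figure D4:**
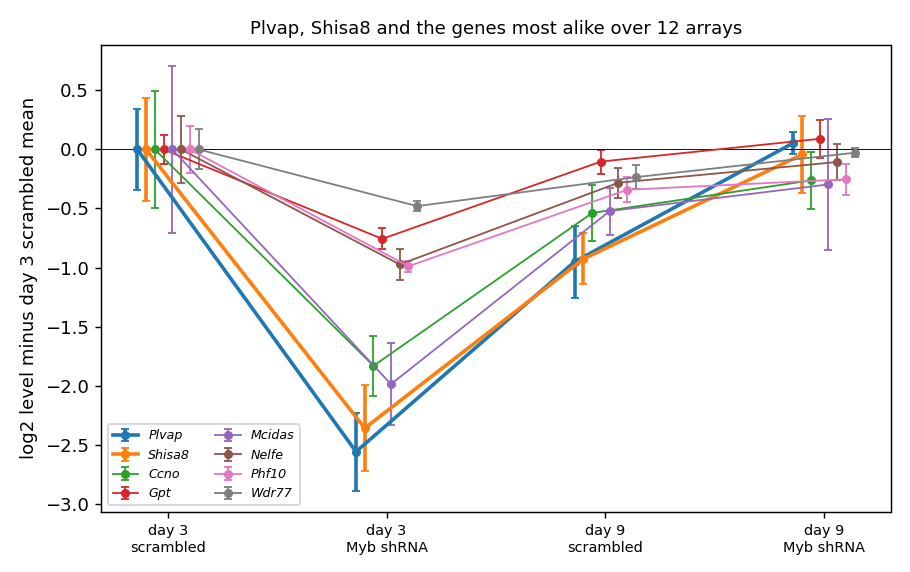
Group means (± SD, n = 3) of Plvap, Shisa8 and the 6 other genes most alike over 12 arrays, each on the log2 scale relative to its own day 3 scrambled mean, in the 4 groups (x axis). All dip in day 3 Myb shRNA cultures, and Plvap and Shisa8 have the deepest dip and the lowest day 9 scrambled means.

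Since Plvap marks endothelium, the other markers of that cell type were read on the same arrays. Of 27 endothelial markers, all with a probe, 23 were not detected on any of the 12 arrays, among them Pecam1, Cdh5, Tek, Tie1, Emcn, Cldn5, Erg and Vwf. Kdr, the main VEGF receptor, was detected on 1 array. The summed signal of the list was 201 to 225.8 in day 3 scrambled and 319.3 to 350.8 in day 3 Myb shRNA cultures, where Esam was the only member of the list called and Egfl7 and Nos3 read lower. At day 9 it was 266.4 to 292 in scrambled and 277.5 to 382.5 in Myb shRNA cultures.

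Of the endothelial markers, 3 passed the filter. At day 3, 22.7% of all genes were called, and at day 9, 16.1%. Esam, an adhesion molecule, rose from 5.68 ± 0.48 to 7.26 ± 0.24 at day 3 (adjusted p = 0.000285). It also rose at day 9, from 5.53 ± 0.11 to 7.49 ± 0.31 (adjusted p = 0.000112), with 2 of 3 scrambled arrays detecting it at either day. Nos3, the endothelial nitric oxide synthase, was lower by 0.92 ± 0.16 at day 9, where 1 of 3 Myb shRNA arrays detected it. At day 3 it was not detected on any Myb shRNA array (adjusted p = 0.143). Nos3 passed the filter only through the day 9 scrambled arrays, where it was highest, so its day 9 difference has no p-value here. Egfl7, a secreted vascular factor, differed by -0.29 ± 0.22 at day 3 (adjusted p = 0.371), while the day 9 difference was -0.35 ± 0.22 (adjusted p = 0.334). By limma 0 of the 3 passed the interaction (1 at an unadjusted p under 0.05), in which 1.65% of all genes passed.

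Caveolae, which carry Plvap diaphragms in endothelium, are coated by caveolins and cavins. Of 9 caveola genes that passed the filter, 3 rose and 1 fell with Myb shRNA at day 3, and 3 rose at day 9. Among all genes tested, 22.7% were called at day 3 (11.2% as lower), and 6.65% passed as higher at day 9. The list's median difference was 0.15 at day 3 and 0.49 at day 9, against 0.00 and 0.05 over all genes. Cav1, the coat protein caveolin, rose by 1.23 ± 0.20 at day 3 (adjusted p = 0.000603), and by 1.62 ± 0.20 at day 9 (adjusted p = 0.000143). Cavin2 rose by 1.13 ± 0.29 and 1.40 ± 0.29 (adjusted p = 0.0124 and 0.00423), and Ehd2, an ATPase of the caveola neck, by 1.22 ± 0.15 and 1.05 ± 0.15 (adjusted p = 6e-05 and 0.000343). Cav2 alone passed as lower at day 3, at -0.67 ± 0.15 (adjusted p = 0.0067), and differed by 0.04 ± 0.15 at day 9 (adjusted p = 0.917). By limma 0 of the 9 passed the interaction (2 at an unadjusted p under 0.05), against 1.65% of all genes.

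Of 10 genes for VEGF ligands and receptors, which regulate the vascular barrier, 4 passed the filter. The ligands Vegfa, Vegfb and Vegfc did not pass at either day. Vegfa differed by 0.33 ± 0.29 at day 3 and 0.43 ± 0.29 at day 9 (adjusted p = 0.443 and 0.371). Vegfb differed by -0.25 ± 0.13 and 0.36 ± 0.13 (adjusted p = 0.192 and 0.0848), and with the replicate block its day 9 adjusted p was 0.0389. Vegfc differed by -0.32 ± 0.17 and 0.19 ± 0.17 (adjusted p = 0.205 and 0.541). Vegfb and Vegfc had the signs of Plvap at both days, with no call at either in the fit without a block. Their Myb shRNA arrays lay below all scrambled arrays at day 3, as did those of 18.7% of all genes tested. Nrp1, a coreceptor of VEGF and semaphorins, went the other way from Plvap. Its level at day 3 was 5.48 ± 0.17 under scrambled and 7.83 ± 0.19 under Myb shRNA, and it did not pass at day 9 (adjusted p = 0.338). Nrp1 passed the filter only through the day 3 Myb shRNA arrays, where it was highest, so contrasts with them have no p-value here. The Nrp1 difference changed between days by -2.06 ± 0.25, a value that includes day 9 scrambled arrays, none of which detected it.

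The relatives and partners of Shisa8 were mostly not detected. Of 9 other Shisa genes with a probe, 6 were not detected on any array. Shisa5, a broadly expressed member, was 11.93 ± 0.30 under scrambled and 11.80 ± 0.05 under Myb shRNA at day 3 (adjusted p = 0.477), and 11.90 ± 0.09 and 12.00 ± 0.08 at day 9 (limma adjusted p = 0.657). Shisa7, another AMPA receptor partner, was detected on 1 of 3 scrambled and 0 of 3 Myb shRNA arrays at day 3, and its day 9 difference was 0.10 ± 0.20 (adjusted p = 0.813). Of 13 AMPA receptor subunits and auxiliary genes with a probe, 11 were not detected on any array. The subunit gene Gria3 was at least 1.65-fold higher with Myb shRNA at day 3, where no scrambled array read it well above background. It passed the filter only through the day 3 Myb shRNA arrays, so no p-value is given. At day 9 Gria3 was not detected.

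**Figure D5:**
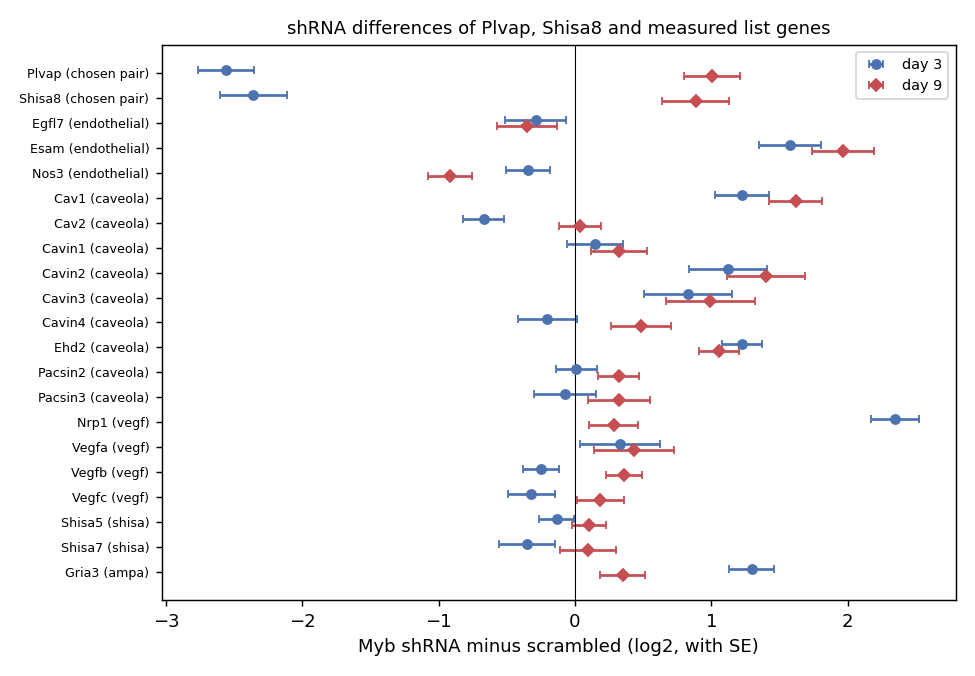
Difference between Myb shRNA and scrambled cultures (log2, bars are SE) at day 3 (blue circles) and day 9 (red diamonds) for Plvap, Shisa8 and the endothelial, caveola, VEGF, Shisa and AMPA receptor genes that passed the filter. Plvap and Shisa8 lie below -2 at day 3 and near 1 at day 9, while Esam, Cav1, Cavin2 and Ehd2 lie above 0 at both days and Nrp1 at 2.35 at day 3. No array detected the probe in 1 of the groups behind the points of Nos3, Shisa7 and Gria3 at day 3 and Nrp1 at day 9. Behind the day 9 point of Gria3, no array of either group detected it.

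Markers of other cell types were read for the same reason. Of 11 leukocyte markers with a probe, 7 were not detected on any array, Ptprc, Tyrobp and Itgam included, and of 12 fibroblast, smooth muscle and pericyte markers, 10 were not, Col1a1, Pdgfra and Pdgfrb included. The leukocyte sum was 10330 to 14310 in day 3 scrambled and 4584 to 6666 in day 3 Myb shRNA cultures, and 12710 to 16430 against 7354 to 8376 at day 9, lower with Myb shRNA at both days. Of its 4 measured members, 3 fell at day 3, where 11.2% of all genes passed as lower. They were the lysozyme gene Lyz2 (also a product of airway glands), the lysosomal gene Cd68 and the lipopolysaccharide coreceptor gene Cd14. The remaining measured member, Csf1r, went the other way, by 0.19 ± 0.17 at day 3 and 0.32 ± 0.17 at day 9. At each day 2 of 3 Myb shRNA arrays and 0 of 3 scrambled arrays detected Csf1r, so these sizes include a group at background. Lyz2 fell at day 9, where 16.1% of all genes were called in either direction. Lyz2 (12.67 in day 3 scrambled, 10.87 in day 3 Myb shRNA cultures) and Cd14 had the highest levels of the 4, so the sum mostly reflects these genes. Cd14 fell by 0.29 ± 0.10 at day 3 (adjusted p = 0.0429), a call lost in 12 alternatives, and differed by 0.23 ± 0.10 at day 9 (adjusted p = 0.142). Its shRNA groups did not overlap at either day, with the signs of Plvap, as for 0.64% of all genes tested, but it was not called at day 9. The fibroblast sum was 1062 to 1429 against 840.6 to 1411 at day 3 and 283.7 to 358.7 against 272.9 to 369.2 at day 9, so the shRNA groups overlapped at each day. The part of these cell types in the Plvap and Shisa8 values was not tested.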

How the data were processed

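The members and gene lists were chosen with earlier results of these data known. Per the file headers, the authors deposited 1 table of unnormalised bead array output, with an intensity and, beside it, a detection p-value on 12 arrays for 45281 probes; some intensity values lie below 0, so a background had been subtracted. The authors' other table holds normalised log2 values, with no statement of how they were made. Per the submitters' processing notes, BeadStudio 3.0 and limma were used; their steps and the genome build are not given in the sources used here. In R 4.3.3, limma 3.58.1 (neqc, offset 16) corrected, quantile-normalised and log2-transformed the signals. Probes detected (p under 0.01) on at least 3 arrays were kept, and named from the platform annotation updated through a GRCm38.p6 gene table; the probe with the highest mean stood for a gene (9378 genes). Group means were fitted to all 12 arrays with lmFit and eBayes with trend (8 residual degrees of freedom), two-sided, adjusted by Benjamini-Hochberg over all genes, threshold 0.05. The fit was tested on simulated data.

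Plvap and Shisa8 were described with every probe. The other genes named were the 5 most correlated with each, up to 10 and 5 genes called in opposite directions at both days, up to 4 per list by smallest p and 3 measured neighbours on either side. Same-numbered replicates deviated together in all pairs at day 3 (lowest r 0.150) and day 9 (lowest r 0.297), above the bound of 0.1, and on this ground, from the data, the shRNA comparisons were taken as paired; the fit reported has no block, and blocked values stand beside the results they change. Over all groups 16 of 18 pairs did. Alternatives were other background corrections, filters, probe and variance choices, array weights, a replicate block and arrays left out.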

Additional observations from a re-analysis of the deposited data

Results flagged for a closer look

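Effects of Myb shRNA that differed between day 3 and day 9 are listed here with the day 9 less the day 3 difference on the log2 scale. For Plvap the change was 3.56 and for Shisa8 3.24, with every array moving one way at day 3 and the other at day 9; the difference was not tested, since it chose these genes. The genes most like these were selected for likeness over the same arrays, so their changes have no p-value here either. The changes were 2.21 for Mcidas, 2.11 for Ccno, 1.15 for Nelfe, 1.08 for Phf10, 0.95 for Gpt and 0.69 for Wdr77. By limma's interaction test, among the genes named from the lists or for opposite calls, Cyp4a12a changed by 1.45 (adjusted p = 0.00783), Cyp4a12b by 1.20 (adjusted p = 0.0223), Slc6a9 by 1.06 (adjusted p = 0.00751), Fmo2 by 0.98 (adjusted p = 0.0388), Selenbp2 by 0.97 (adjusted p = 0.0137) and Tmem54 by 0.88 (adjusted p = 0.0178). The ribonuclease gene Rnase4 changed by -2.15 (adjusted p = 0.0114), the lipid transfer gene Osbpl3 by -1.46 (adjusted p = 0.0111) and Chn2, a Rac regulator, by -1.16 (adjusted p = 0.0252). The genes from Cyp4a12a to Chn2 were named because they were called in opposite directions at the 2 days. Their interaction p-values follow largely from that choice and are no further support. Nrp1 changed by -2.06, with no p-value because it passed the filter only through the day 3 Myb shRNA arrays. The keratin gene Krt8 changed by -0.80 (adjusted p = 0.0475). No array detected Fmo2 in day 3 Myb shRNA, Chn2 in day 9 Myb shRNA or Nrp1 in day 9 scrambled cultures, so the sizes of these 3 changes include a group at background.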

How the results depend on the processing

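The signs of all differences given for Plvap and Shisa8 were the same under every alternative that could be run (Shisa8 was not among genes detected on all 12 arrays), and the average day differences passed under each, with adjusted p up to 0.00325 for Plvap and 0.0397 for Shisa8. With the replicate number as a block the adjusted p were 0.000165 and 0.00118, and the differences were equal by construction. Sizes moved by more than 1 SD with the deposited log2 values (Plvap day 3 -2.16, interaction 3.07, Myb shRNA day course 2.21; Shisa8 -1.68, 2.39 and 1.64), with normexp (Plvap -1.95, 2.81 and 2.00; Shisa8 -1.40, 2.01 and 1.36), with array weights (Plvap scrambled day course -0.59, Shisa8 interaction 2.74) and without replicate 3 (scrambled day courses -0.59 and -0.55, Shisa8 interaction 2.79). Called genes numbered 2133 at day 3, 1513 at day 9 and 155 in the interaction. They numbered 3398, 2331 and 714 with the replicate block, 6562, 2746 and 3396 with array weights (5346 in the average day difference), whose estimate stopped before it converged, and 3553, 2329 and 1371 without replicate 3; 80 passed the interaction among genes detected on all 12 arrays. Genes lower at day 3 and higher at day 9, and the reverse, numbered 19 and 25 with the block, 143 and 125 with weights and 54 and 46 without replicate 3. With single arrays or replicate 3 left out, the scrambled day course ran from -1.10 to -0.59 for Plvap and from -1.05 to -0.55 for Shisa8, and the interaction of Shisa8 from 2.79 to 3.41. Leaving out single arrays gave 1414 to 3020 calls at day 3, 919 to 1897 at day 9, 50 to 324 in the interaction, and 1 to 16 and 1 to 12 opposite calls. Day 3 scrambled replicate 3 gave the highest of these counts and day 9 scrambled replicate 3 the fewest opposite calls; the cause was not tested. Of 66 differences of other named genes, 17 lost and 11 gained a call under some alternative, and none of those called changed sign. Faint signals near background limit Shisa8 in day 3 Myb shRNA cultures.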

Other observations

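The measured genes nearest to Plvap and Shisa8 in the mouse gene table are given here with their shRNA differences. Plvap lies on chromosome 8 and Shisa8 on chromosome 15. Around Plvap, Gtpbp3, Dda1 and Mrpl34 on one side and Bst2, Mvb12a and Slc27a1 on the other gave no call for the shRNA at either day. Gtpbp3, the adjoining gene, differed by -0.10 ± 0.14 at day 3 (limma adjusted p = 0.669) and 0.11 ± 0.14 at day 9 (adjusted p = 0.679). Around Shisa8, Srebf2 and Snu13 on one side and Cenpm, Smdt1 and Ndufa6 on the other gave no call either, while Ccdc134 fell by 0.37 ± 0.12 at day 3 (adjusted p = 0.0461) and differed by -0.31 ± 0.12 at day 9 (adjusted p = 0.118). The largest shRNA difference in size among these 12 neighbours at day 3 was -0.59 ± 0.29, for Snu13 (adjusted p = 0.167). Over all genes tested, 22.7% were called at day 3 and 16.1% at day 9.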
